A study of Homo sapiens with 9 samples.

Results

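The genes described here are 34 genes of the unfolded protein response and of protein folding in the endoplasmic reticulum (ER). They were taken by symbol from a list of the pathway's genes, and all 34 were found among the 21229 genes of the deposited count table. They were split into 17 chaperone and folding genes, 8 degradation genes and 9 sensors and transcription factors. SEC61B, a subunit of the channel through which new proteins enter the ER, was kept with the folding genes. All 34 passed the filter on low counts, as did 16232 genes in all.

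The RNA came from bulk blood cells grown out of H1, a human embryonic stem cell line. The 3 groups had 3 libraries each. The first held CD38+ control cells, the second CD90+ control cells, and the other one CD90+ cells with GATA2 overexpression. How the cells were selected by these surface markers is not stated. All groups share the H1 background, so 1 cell line stands for the species. The age of the cultures, the way in which GATA2 was overexpressed, and whether the replicates were grown separately are not stated in the labels. Tests thus set differences against the spread between libraries only, and that spread may be technical.

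Secreted and membrane proteins fold in the ER, where chaperones such as BiP (HSPA5) and protein disulfide isomerases help them. Proteins that fail to fold are moved back to the cytosol and destroyed, a process called ER-associated degradation. When unfolded proteins accumulate, the sensors IRE1 (ERN1), PERK (EIF2AK3) and ATF6 are activated. IRE1 splices XBP1 mRNA, PERK slows translation and favours synthesis of the factor ATF4, and ATF6 is cut to release a transcription factor. These factors raise the transcription of chaperone and degradation genes, and prolonged PERK signalling induces DDIT3 (CHOP) and TRIB3. Blood stem cells and some secretory blood cells are known to depend on this pathway. Gene counts show neither the splicing of XBP1 nor the translation of ATF4 nor the cleavage of ATF6.

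The promoters were examined first, since a DNA element links many of these genes. RefSeq windows (GRCh38.p14) from 250 bases before to 50 bases after a start site were matched by symbol for 31 of the 34 members, in 41 windows. The ER stress response element (ERSE), searched as CCAAT, then any 9 bases, then CCACG on both strands, was found in the windows of 7 members (22.6%). These were HSPA5, HSP90B1, CALR, CANX, PDIA6, CRELD2 and XBP1. Among all 35116 windows 27 held it (0.0769%), or 25 of 27305 genes with a window (0.0916%). Of 85 other genes of the ER pathway with a window, 2 held it (2.35%). The element is named for this response, so its share among members is a description and not a test. ERSE-II, searched as ATTGG, any 1 base, then CCACG, was found for SDF2L1, HYOU1 and HERPUD1 (9.68% of members, 0.0696% of all genes, 0.0541% of windows). The XBP1-type element UPRE (TGACGTGG) was found for DNAJC10 and HYOU1 (6.45% of members, 0.927% of all genes, 0.729% of windows). In HYOU1 it overlapped an ERSE-II match. The ATF4-type element CARE (TGATGNAA) was found for HERPUD1 alone among members (3.23% of members, 4.46% of all genes, 3.62% of windows). A match describes letters and does not show a bound site.

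The 6 windows below are shown because their genes gave the differing patterns described in the results, and capitals mark the matches. Each is written 5′ to 3′ along the gene's own strand. The ERSE match lay 66 to 48 bases before the HSPA5 start, 52 to 34 bases before the XBP1 start and, on the opposite strand, 225 to 207 bases before the CALR start. The ERSE-II match lay 117 to 107 bases before the HERPUD1 start and, on the opposite strand, 188 to 178 bases before the SDF2L1 start. The CARE match of HERPUD1 lay 176 to 169 bases before its start, on the opposite strand. HYOU1 had ERSE-II matches on the opposite strand 185 to 175 and 79 to 69 bases before its start, and its UPRE match lay at 188 to 181 bases.
HSPA5 (chr9:125241294-125241593, minus strand): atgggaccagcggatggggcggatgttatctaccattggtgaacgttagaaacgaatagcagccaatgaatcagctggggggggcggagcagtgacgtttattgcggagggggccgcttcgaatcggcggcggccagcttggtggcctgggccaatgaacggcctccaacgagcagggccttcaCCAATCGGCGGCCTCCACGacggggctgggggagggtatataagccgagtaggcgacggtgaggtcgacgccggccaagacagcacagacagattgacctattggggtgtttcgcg
XBP1 (chr22:28800520-28800819, minus strand): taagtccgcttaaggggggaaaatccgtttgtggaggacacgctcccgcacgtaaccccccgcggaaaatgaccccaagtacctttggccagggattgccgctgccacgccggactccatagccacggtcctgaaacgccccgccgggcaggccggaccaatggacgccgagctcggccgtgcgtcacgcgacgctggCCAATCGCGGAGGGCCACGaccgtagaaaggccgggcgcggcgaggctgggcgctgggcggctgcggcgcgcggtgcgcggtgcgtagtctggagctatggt
CALR (chr19:12938359-12938658, plus strand): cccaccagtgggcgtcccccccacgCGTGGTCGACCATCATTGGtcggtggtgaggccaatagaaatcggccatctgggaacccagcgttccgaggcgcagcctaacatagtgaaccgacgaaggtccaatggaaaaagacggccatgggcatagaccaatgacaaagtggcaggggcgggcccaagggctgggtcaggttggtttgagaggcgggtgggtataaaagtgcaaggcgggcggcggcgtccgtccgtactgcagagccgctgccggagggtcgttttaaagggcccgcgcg
HERPUD1 (chr16:56931892-56932191, plus strand): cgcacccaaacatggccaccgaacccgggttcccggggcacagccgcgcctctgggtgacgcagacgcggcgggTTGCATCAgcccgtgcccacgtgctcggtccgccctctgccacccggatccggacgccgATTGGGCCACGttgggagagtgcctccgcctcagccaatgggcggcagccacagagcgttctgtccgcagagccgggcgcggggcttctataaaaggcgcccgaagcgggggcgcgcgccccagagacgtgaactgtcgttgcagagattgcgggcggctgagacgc
HYOU1 (chr11:119057156-119057455, minus strand): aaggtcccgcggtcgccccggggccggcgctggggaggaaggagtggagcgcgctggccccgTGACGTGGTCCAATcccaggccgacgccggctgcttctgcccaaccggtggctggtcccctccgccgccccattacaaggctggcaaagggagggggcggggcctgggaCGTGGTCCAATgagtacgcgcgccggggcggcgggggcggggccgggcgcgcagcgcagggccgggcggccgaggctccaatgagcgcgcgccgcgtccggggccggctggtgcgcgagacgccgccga
SDF2L1 (chr22:21642052-21642351, plus strand): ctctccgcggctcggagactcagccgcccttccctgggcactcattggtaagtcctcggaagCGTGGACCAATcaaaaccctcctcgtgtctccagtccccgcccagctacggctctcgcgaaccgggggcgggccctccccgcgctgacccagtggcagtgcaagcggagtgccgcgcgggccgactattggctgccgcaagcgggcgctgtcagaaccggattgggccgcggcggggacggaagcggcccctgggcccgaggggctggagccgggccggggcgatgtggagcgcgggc

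Libraries held 37500192 to 47261093 counts. Levels are given as CPM, the usual depth-scaled read counts, after TMM scaling, and a gene was called higher or lower at an adjusted p under 0.05 in edgeR's quasi-likelihood test. GATA2 was at 86.6, 89.5 and 85.9 CPM in CD90+ control and at 363, 388 and 377 CPM in GATA2 overexpression libraries. It was higher still, at 551 to 581 CPM, in CD38+ control libraries, so the CD38+ group is no low-GATA2 reference. THY1, which encodes CD90, had 0 counts in all 3 CD38+ libraries and 3.83 to 5.09 CPM in CD90+ control libraries. All 10 blood cell markers examined, among them PTPRC and RUNX1, were detected in every group. The summed level of 7 pluripotent cell markers was 8.64 to 9.47 CPM in CD38+ control, 67.9 to 69.5 CPM in CD90+ control and 60.7 to 66.6 CPM in GATA2 overexpression libraries, and all 5 that were tested were higher in CD90+ than in CD38+ control cells. LIN28A and DPPA4 made up most of it in CD90+ control cells, at 33.0 and 23.3 CPM, while POU5F1 had 0 counts in CD38+ control and GATA2 overexpression libraries.

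In CD90+ control compared with CD38+ control cells, the comparison of the cell fractions, nearly the whole pathway was lower. Of 34 members 31 fell and 1 rose, where 39.3% of all genes tested fell and 41.1% rose, 80.4% being called in all. The libraries of the groups did not overlap for 31 members lower and 2 higher in CD90+ cells, against 40.4% and 42.5% of all genes. Their median log2 fold change was -1.01, against 0.03 over all genes tested. At least 2-fold falls were called for 17 members, against 13.6% of all genes. With scaling by library size only, which moved the median of all genes by 0.41 on the log2 scale, 23 members fell and 8 rose. In bulk RNA, fewer cells that express a gene and less of its RNA per cell cannot be told apart.

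Among chaperones and folding genes 16 of 17 fell and 0 rose, where 39.3% of all genes tested fell and 41.1% rose. The median log2 fold change of these 17 was -1.27, and with library size only 11 fell and 4 rose. HSPA5, the central Hsp70 chaperone of the ER, was at 3808, 3759 and 3862 CPM in CD38+ libraries and at 962, 954 and 929 CPM in CD90+ control libraries. The groups lay far apart, and HSPA5 was 4.02-fold lower in CD90+ cells (log2 fold change -2.01, SE 0.0241, adjusted p = 3.83e-20). It made up 23.6 ± 0.140% (SD, n = 3) of the scaled counts of all 34 members in CD38+ cells and 12.5 ± 0.147% in CD90+ control cells. DNAJB9, an Hsp40 cofactor of BiP that restrains IRE1, went from 296, 294 and 302 CPM to 66.2, 67.2 and 67.2 CPM, a 4.45-fold fall. The other cofactors did not move alike. DNAJC3 fell 2.62-fold and DNAJB11 1.99-fold, whereas DNAJC10, a disulfide reductase that aids degradation, fell 1.23-fold. HYOU1, which acts with BiP, fell 2.99-fold, from 87.8 ± 4.87 to 29.4 ± 1.36 CPM (SD, n = 3).

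The disulfide isomerases fell by unequal amounts. P4HB was at 994, 1012 and 1038 CPM in CD38+ and at 354, 351 and 340 CPM in CD90+ control libraries, a 2.91-fold fall. PDIA3, which works with the lectin chaperones on glycoproteins, went from 1070, 1065 and 1067 CPM to 519, 527 and 520 CPM, 2.05-fold lower. PDIA6 and PDIA4 fell 1.31-fold and 1.24-fold under TMM scaling. With library size only, the log2 fold changes of PDIA4 and PDIA6 were 0.10 and 0.02, so the small falls depended on the scaling.

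The lectin chaperones CALR and CANX and the Hsp90 of the ER, HSP90B1, followed. CALR was at 159, 153 and 165 CPM in CD38+ and at 160, 154 and 160 CPM in CD90+ control libraries. The ranges overlapped, and the log2 fold change of CALR was -0.01 (SE 0.0297, adjusted p = 0.751). Its sign turned in 8 of the alternative settings. In 2 of these CALR was called higher in CD90+ control cells, with library size only (log2 fold change 0.40, adjusted p = 1.49e-09) and with at least 1 CPM in 3 libraries (0.07, adjusted p = 0.0346). CANX was 1.37-fold and HSP90B1 1.21-fold lower. With library size only CANX was not called (adjusted p = 0.165), and HSP90B1 was higher, at a log2 fold change of 0.14. The stress-induced secreted or luminal proteins SDF2L1, MANF and CRELD2 fell 2.97-fold, 2.66-fold and 2.41-fold, and SEC61B fell 2.43-fold.

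**Figure D1:**
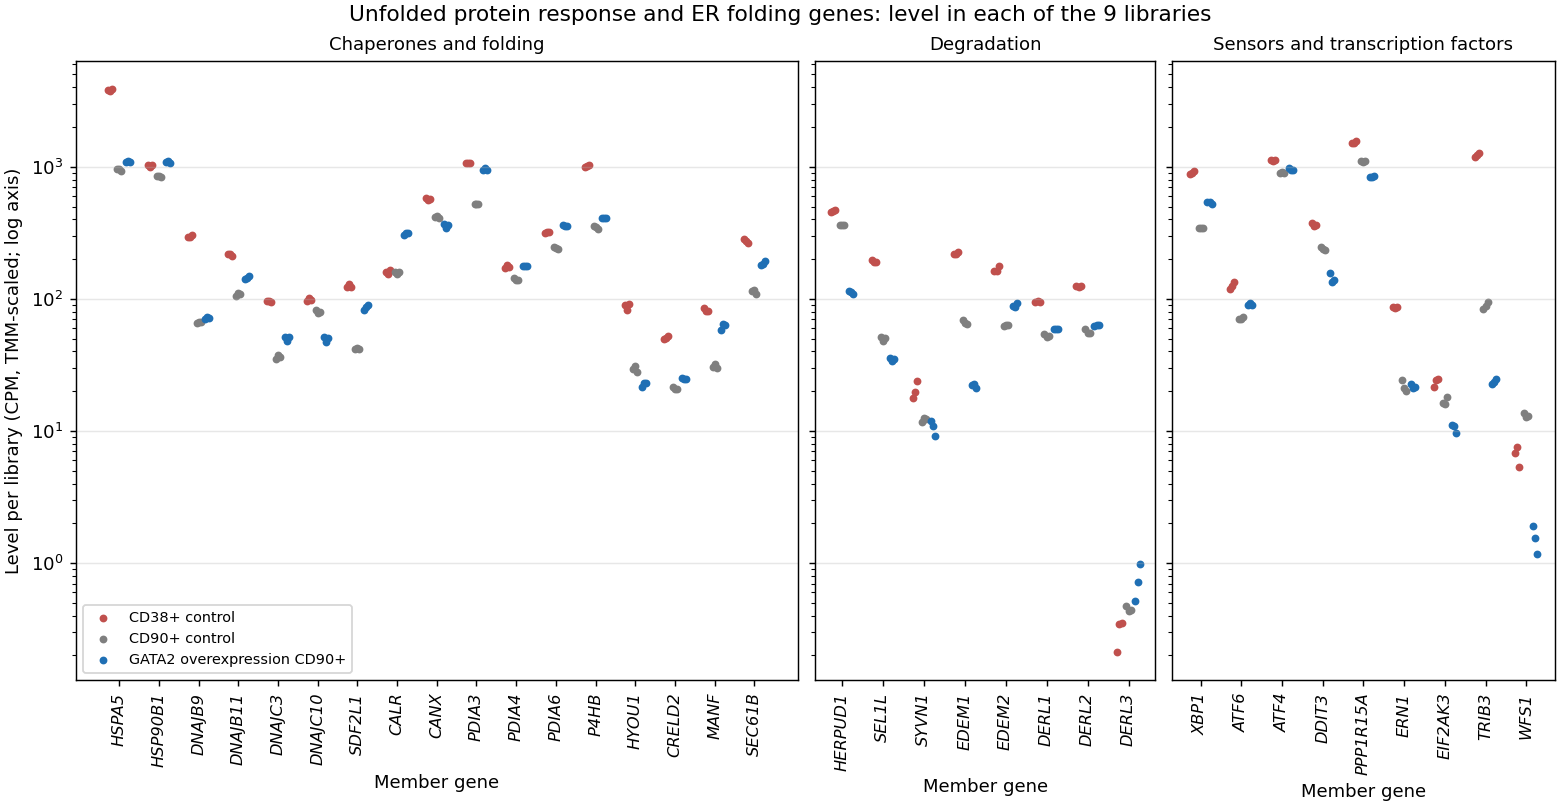
Level of each of the 34 members in each of the 9 libraries (points), in CPM on a log axis, by role and group. HSPA5 is the highest in CD38+ control libraries (3759 to 3862 CPM), TRIB3 spans the widest range between groups, and DERL3 lies under 1 CPM in every library.

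Of 8 degradation genes 7 fell and 0 rose in CD90+ control cells, where 39.3% of all genes tested fell and 41.1% rose. The median log2 fold change of the 8 genes was -1.0. Scaled by library size only, 6 fell and 2 rose. SEL1L, the scaffold of the ubiquitin ligase complex that retrotranslocates misfolded proteins, went from 197, 191 and 190 CPM to 51.4, 48.3 and 50.2 CPM. That was a 3.85-fold fall with no overlap between groups. EDEM1 and EDEM2, which trim mannose from glycoproteins bound for degradation, fell 3.35-fold and 2.66-fold. The channel proteins DERL2 and DERL1 fell 2.21-fold and 1.81-fold, and the ligase gene SYVN1 fell 1.69-fold. HERPUD1, a stress-induced membrane protein of the same complex, fell 1.27-fold only, from 461 ± 6.66 to 362 ± 1.22 CPM (SD, n = 3). With library size only the log2 fold change of HERPUD1 was 0.06. DERL3 was barely detected, at 8 to 14 counts in CD38+ and 22 to 24 counts in CD90+ control libraries, and was not called (adjusted p = 0.205), except higher with library size only (0.0336).

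All 9 sensors and factors were called, where 80.4% of all genes tested were called. Of the 9, 8 were lower and 1 higher (6 and 2 with library size only), against 39.3% and 41.1% of all genes. TRIB3, a pseudokinase induced by ATF4 and CHOP, showed the largest fall of any member. It was at 1186, 1227 and 1271 CPM in CD38+ and at 84.2, 87.6 and 94.5 CPM in CD90+ control libraries (13.8-fold, log2 fold change -3.79, SE 0.0397, adjusted p = 6.95e-21). ATF4 itself differed by far less, at 1116, 1114 and 1125 CPM against 903, 905 and 901 CPM, a 1.24-fold fall. ATF4 was higher with library size only, at a log2 fold change of 0.10. Per ATF4 count there were 1.06 to 1.13 TRIB3 counts in CD38+ and 0.0932 to 0.105 in CD90+ control libraries, a ratio that does not depend on scaling between libraries.

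The other genes of the PERK arm lay between them. DDIT3, the factor CHOP, was 1.52-fold lower, and PPP1R15A (GADD34), which ends the translational block, was 1.39-fold lower. EIF2AK3 was at 21.7, 24.4 and 24.8 CPM against 16.3, 15.9 and 18.1 CPM, a 1.41-fold fall, but with library size only it was not called (adjusted p = 0.335). On the IRE1 arm, ERN1 went from 86.6, 85.4 and 86.3 CPM to 24.4, 21.2 and 20.1 CPM. XBP1 went from 880, 903 and 921 CPM to 344, 345 and 343 CPM. These falls of 3.93-fold and 2.62-fold exceeded the 1.78-fold fall of ATF6. WFS1, which encodes the ER membrane protein wolframin, was the member that rose, from 6.81, 7.62 and 5.33 CPM to 13.6, 12.8 and 12.9 CPM (1.99-fold, adjusted p = 1.04e-05).

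**Figure D2:**
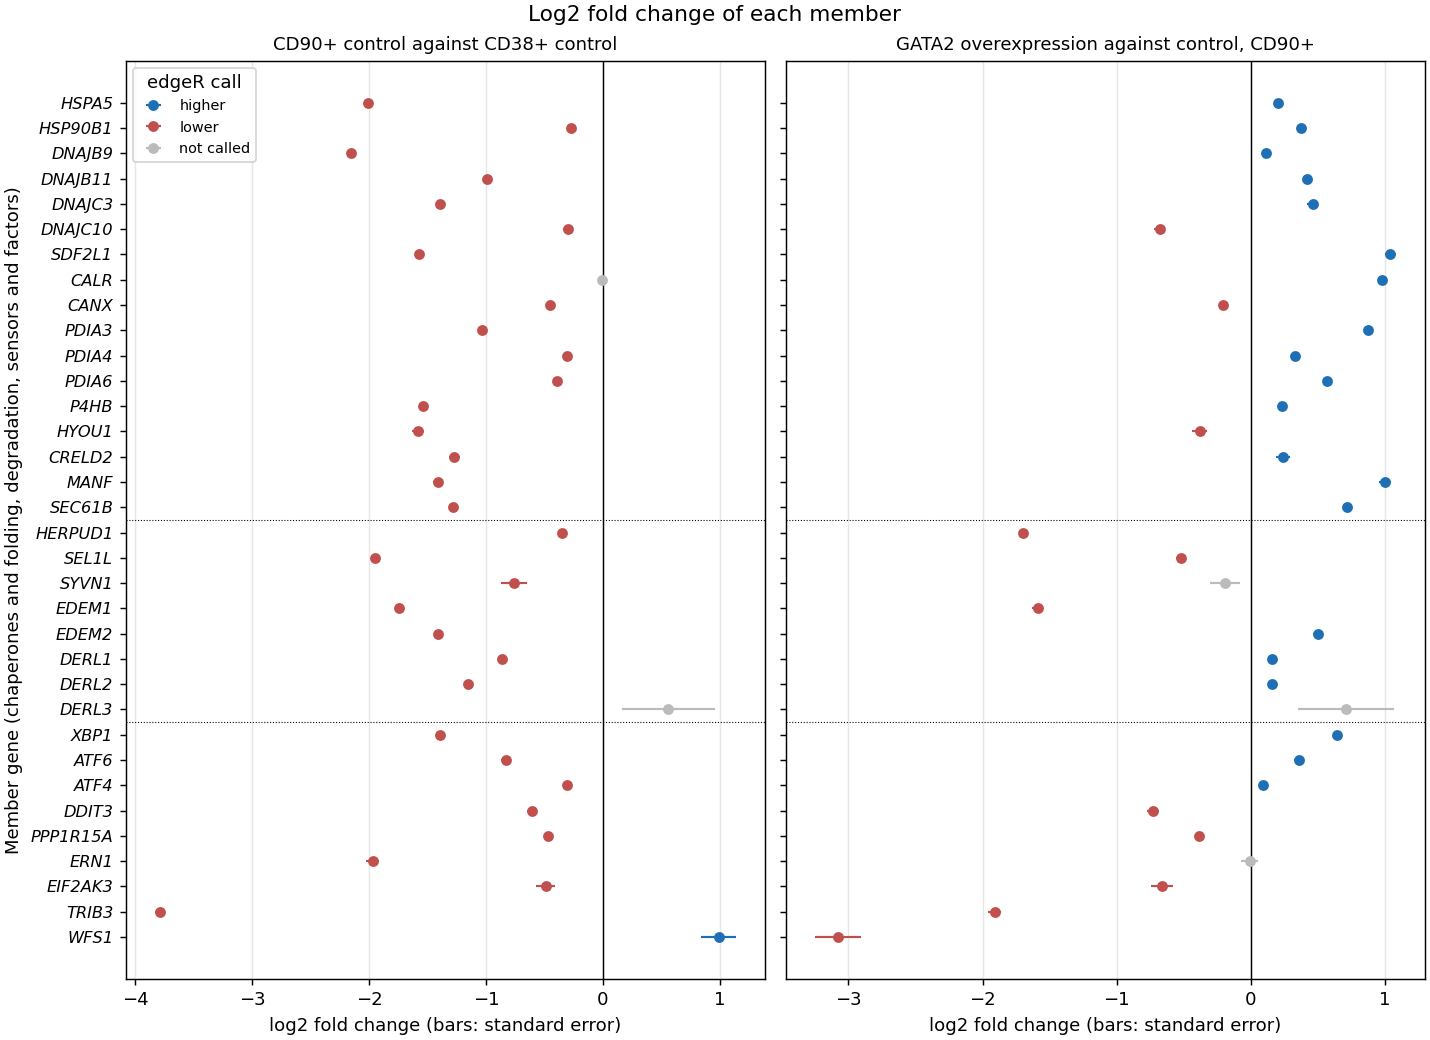
Log2 fold change of each member with its standard error, for CD90+ control against CD38+ control (left) and GATA2 overexpression against control CD90+ cells (right). On the left 31 members are lower, and on the right 14 of 17 chaperone and folding genes are higher while HERPUD1, EDEM1, TRIB3 and WFS1 lie furthest below 0. Over all genes tested 39.3% are lower on the left and 38.0% higher on the right. The 2 panels share the CD90+ control libraries.

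Within CD90+ cells, GATA2 overexpression was compared with control. The pathway did not move as a block. Of 34 members 20 rose and 11 fell, where 38.0% of all genes tested rose and 39.6% fell, 77.6% being called in all. The libraries did not overlap for 21 members higher and 11 lower with overexpression, against 39.3% and 41.1% of all genes. The median log2 fold change of members was 0.18, against -0.04 over all genes tested. At least 2-fold changes were called for 2 members upwards and 4 downwards, against 7.98% and 21.4% of all genes. With library size only, which moved the median of all genes by -0.25, 13 members rose and 17 fell. An effect of GATA2 and a difference between cell cultures cannot be told apart with these labels.

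Of 17 chaperones and folding genes 14 rose and 3 fell, where 38.0% of all genes tested rose and 39.6% fell. The median log2 fold change of these 17 was 0.37, and with library size only 10 rose and 4 fell. The largest rises were in SDF2L1, MANF, CALR and PDIA3. SDF2L1, a partner of BiP cofactors, was at 42.0, 42.5 and 41.5 CPM in control and at 82.1, 86.6 and 89.6 CPM in GATA2 overexpression libraries (2.05-fold, SE of the log2 fold change 0.0381, adjusted p = 1.20e-13). MANF, a secreted survival factor kept in the ER by BiP, went from 30.5, 32.2 and 30.2 CPM to 58.6, 64.4 and 63.0 CPM, 2.0-fold higher. Neither gene's libraries overlapped between groups.

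CALR, not called between the control fractions, was at 305, 314 and 316 CPM with GATA2 overexpression against 160, 154 and 160 CPM. That was a 1.97-fold rise (adjusted p = 7.48e-15). CANX, its membrane-bound counterpart, moved the other way, from 413, 424 and 409 CPM to 366, 342 and 365 CPM, a 1.16-fold fall. The CALR counts per CANX count were 0.363 to 0.392 in control and 0.833 to 0.917 in overexpression libraries. Windows of both genes hold ERSE letters, though not every CANX window does. PDIA3 rose 1.82-fold to 940, 973 and 940 CPM, SEC61B 1.65-fold, PDIA6 1.48-fold, DNAJC3 1.38-fold, DNAJB11 1.33-fold, HSP90B1 1.29-fold and PDIA4 1.26-fold.

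HSPA5 rose little, from 962, 954 and 929 CPM to 1086, 1103 and 1081 CPM (1.15-fold, adjusted p = 6.52e-07). This direction turned with library size only, where its log2 fold change was -0.05 (adjusted p = 0.0661). P4HB, CRELD2 and DNAJB9, higher by 1.17-fold, 1.18-fold and 1.08-fold, also turned, to log2 fold changes of -0.02, -0.01 and -0.14. The DNAJB9 call was lost as well with RLE factors (adjusted p = 0.0699), DESeq2 (0.125) and at least 1 CPM in 3 libraries (0.741). HYOU1 and DNAJC10 fell 1.30-fold and 1.60-fold.

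**Figure D3:**
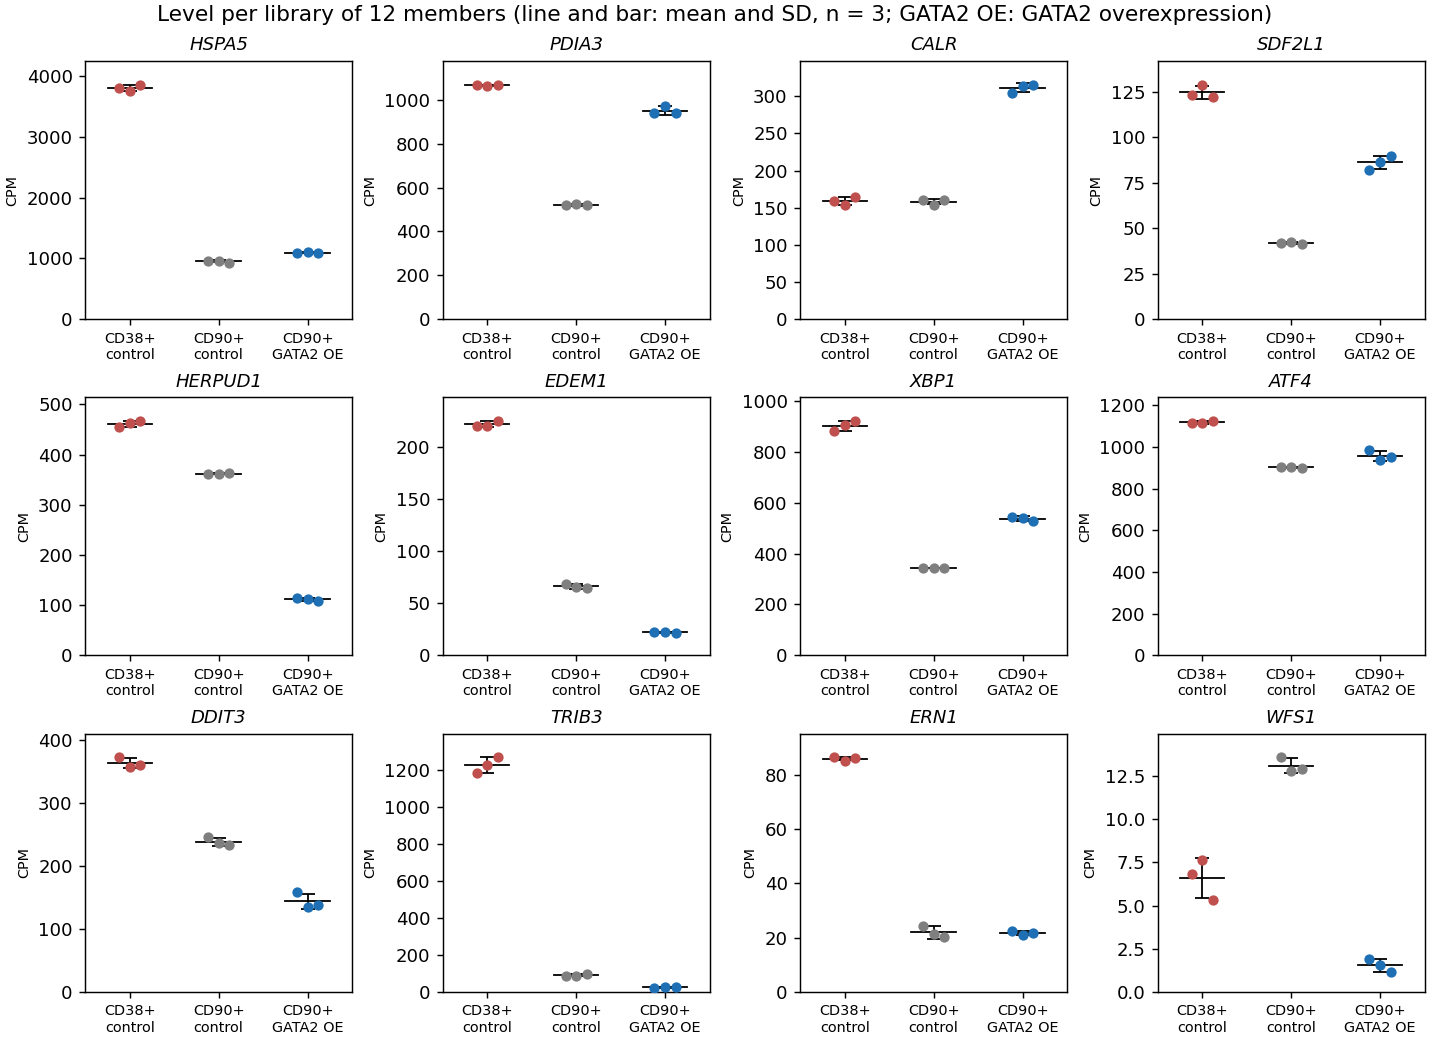
Levels of 12 members in CPM, 1 panel a gene with an axis from 0, points for libraries and lines with bars for the mean and SD of each group (n = 3). CALR sits at 153 to 165 CPM in both control groups and at 305 to 316 CPM with GATA2 overexpression, while HERPUD1 and EDEM1 are lowest with overexpression.

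Of 8 degradation genes 3 rose and 3 fell, shares near those of all genes tested (38.0% and 39.6%). With library size only 1 rose and 6 fell. HERPUD1 fell 3.25-fold with GATA2 overexpression, from 362, 361 and 363 CPM to 114, 112 and 109 CPM (log2 fold change -1.70, SE 0.0245, adjusted p = 9.44e-19). EDEM1 fell 3.0-fold, from 68.8, 65.3 and 64.4 CPM to 22.4, 22.5 and 21.2 CPM. SEL1L fell 1.43-fold, to 34.9 ± 1.08 CPM (SD, n = 3). In contrast EDEM2, a relative of EDEM1, rose 1.42-fold, from 63.0 ± 0.802 to 89.5 ± 2.77 CPM (SD, n = 3). Counts of EDEM1 per EDEM2 count were 1.01 to 1.11 in control and 0.229 to 0.258 in overexpression libraries. DERL1 and DERL2 were each 1.12-fold higher and turned with library size only, to log2 fold changes of -0.09 each. With at least 1 CPM in 3 libraries they were not called (adjusted p = 0.110 and 0.0915). SYVN1 was not called (adjusted p = 0.128), but it was called lower with DESeq2 (0.0428), at least 1 CPM in 3 libraries (0.0243) and library size only (0.00189). DERL3 was not called (adjusted p = 0.0842), except higher without GATA2 overexpression replicate 1 (0.0432).

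HERPUD1 is commonly used, with HSPA5, as a marker of ER stress, and the pair did not move together. There were 0.377 to 0.391 HERPUD1 counts per HSPA5 count in CD90+ control libraries, 0.101 to 0.105 with GATA2 overexpression and 0.119 to 0.123 in CD38+ control libraries. The CD90+ control libraries stood above both other groups in this ratio.

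Of the 9 sensors and factors 5 fell and 3 rose, where 39.6% of all genes tested fell and 38.0% rose. With library size only 7 fell and 2 rose. Of the genes linked to PERK, TRIB3 fell 3.76-fold, from 84.2, 87.6 and 94.5 CPM to 22.7, 23.6 and 24.6 CPM (adjusted p = 5.93e-16). DDIT3 fell 1.66-fold, from 246, 237 and 233 CPM to 158, 135 and 138 CPM. PPP1R15A fell 1.31-fold and EIF2AK3 1.58-fold, each with no overlap between groups. ATF4 was 1.06-fold higher (adjusted p = 0.00291), a call that was lost with RLE factors or DESeq2 and that turned with library size only, at a log2 fold change of -0.16, and with at least 1 CPM in 3 libraries, at -0.01. DDIT3 counts per ATF4 count were 0.258 to 0.272 in control and 0.144 to 0.160 in overexpression libraries.

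XBP1 and ATF6 rose. XBP1, whose spliced product drives folding and degradation genes, went from 344, 345 and 343 CPM to 545, 540 and 527 CPM, a 1.56-fold rise (adjusted p = 1.43e-13). ATF6 rose 1.28-fold, to 91.1 ± 1.85 from 71.0 ± 1.30 CPM (SD, n = 3). ERN1, the sensor that acts on XBP1 mRNA, was at 24.4, 21.2 and 20.1 CPM against 22.6, 21.1 and 21.6 CPM, with overlapping groups (adjusted p = 0.882). ERN1 was called lower with library size only (log2 fold change -0.26, adjusted p = 0.00111). WFS1 fell 8.48-fold, from 13.6, 12.8 and 12.9 CPM to 1.91, 1.54 and 1.17 CPM, the largest fall of any member in this comparison (adjusted p = 3.17e-11).

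The shares of the roles within the pathway need no scaling between libraries. Chaperones and folding genes held 58.7 ± 0.319% (SD, n = 3) of all member counts in CD38+ control libraries. They held 54.5 ± 0.333% in CD90+ control libraries and 64.3 ± 0.432% with GATA2 overexpression. The degradation share was 7.96 ± 0.0193%, 8.71 ± 0.0776% and 4.62 ± 0.0264% in the same order. Sensors and factors held 33.4 ± 0.300%, 36.8 ± 0.280% and 31.1 ± 0.406%. No 2 groups overlapped in any of the shares. The degradation share depended largely on 1 gene. Between CD90+ control and GATA2 overexpression, the summed degradation level went from 663 to 391 CPM, and HERPUD1 alone from 362 to 112 CPM. EDEM2, DERL1 and DERL2 were called higher there. Between CD38+ and CD90+ control the degradation sum went from 1284 to 663 CPM, but HERPUD1 only from 461 to 362 CPM. The other shares also leaned on single genes. From CD38+ to CD90+ control the summed folding level went from 9460 to 4148 CPM, and HSPA5 alone from 3810 to 949 CPM. From CD38+ control to GATA2 overexpression the summed sensor and factor level went from 5382 to 2630 CPM, and TRIB3 alone from 1228 to 23.6 CPM. The shares thus do not show that a role moved as a whole. Groups of 3 cannot give an exact two-sided permutation p under 0.1, so no test is given.

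**Figure D4:**
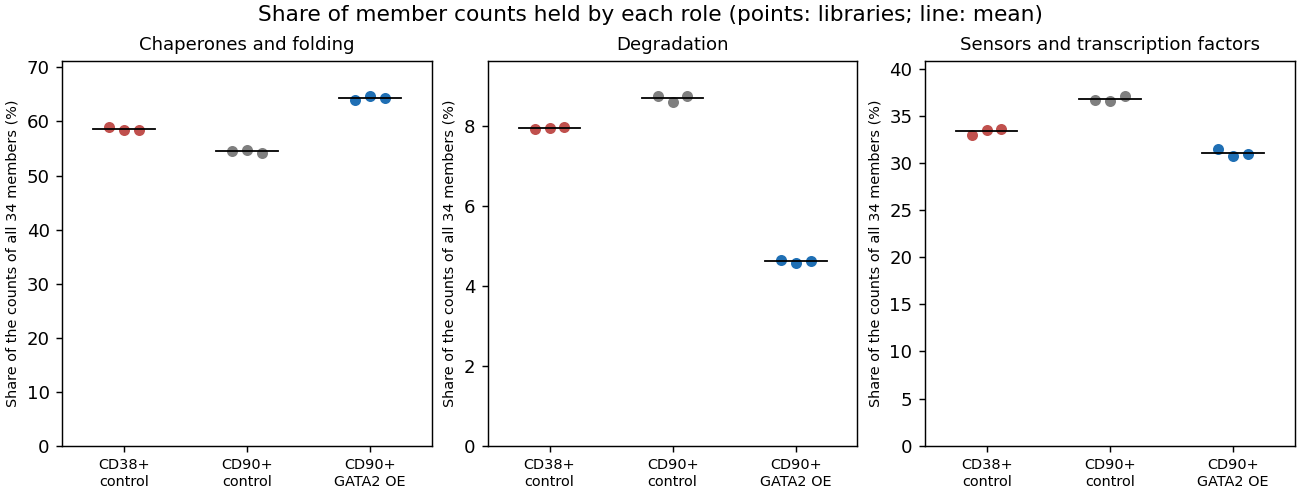
Share of the counts of all 34 members held by each role, in percent, for each library (points) and as group means (lines), with axes from 0. The degradation share is 4.59 to 4.65% with GATA2 overexpression and 7.94 to 8.76% in the control libraries. Most of the fall in the summed degradation level from CD90+ control to GATA2 overexpression lies in HERPUD1.

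GATA2 overexpression CD90+ cells were also compared with CD38+ control cells, the remaining pair of groups. It shares libraries with both comparisons above, so its values are not separate evidence. Of 34 members 29 were lower and 4 higher, where 39.9% of all genes tested were lower and 43.3% higher (83.2% called in all), and the median log2 fold change was -0.92 against 0.07 over all genes tested. The libraries did not overlap for the same numbers, 29 lower and 4 higher, against 40.0% and 42.9% of all genes. TRIB3 was 52.0-fold lower, EDEM1 had a log2 fold change of -3.33, and lower levels were also called for SEL1L 5.51-fold, HERPUD1 and DNAJB9 4.13-fold each, ERN1 3.96-fold, HYOU1 3.90-fold and HSPA5 3.50-fold. CALR was 1.96-fold higher, DERL3 2.40-fold higher on 20 to 36 counts per library, PDIA6 1.13-fold and HSP90B1 1.07-fold higher. PDIA4 was not called (adjusted p = 0.532) but was called higher with library size only (5.09e-06), where PDIA3, 1.12-fold lower, was not called (0.849). XBP1 was 1.68-fold lower, at 545, 540 and 527 CPM against 880, 903 and 921 CPM.

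Levels were ranked between genes per kilobase of exon (union of GENCODE release 29 basic exons). The CPM values, sums and shares given elsewhere are not corrected for gene length. In CD38+ control cells HSPA5 led the members at 975 ± 13.2 CPM per kilobase (SD, n = 3), followed by PPP1R15A at 643 ± 13.1. ATF4 at 445 ± 2.31, XBP1 at 442 ± 10.1, TRIB3 at 424 ± 14.6 and SEC61B at 421 ± 14.9 CPM per kilobase came next, and neighbours in this row lay within or near their spread. In CD90+ control cells PPP1R15A led at 464 ± 3.17, before ATF4 at 359 ± 0.870, HSP90B1 at 295 ± 4.02 and HSPA5 at 243 ± 4.41 CPM per kilobase. With GATA2 overexpression ATF4 at 381 ± 9.56 and HSP90B1 at 381 ± 6.07 did not differ beyond their spread, and PPP1R15A followed at 354 ± 3.63 CPM per kilobase. TRIB3 went from rank 5 in CD38+ control to rank 18 in CD90+ control and rank 25 with GATA2 overexpression. These levels assume that all annotated exons are used.

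Members with and without ERSE letters were set side by side as a description. In CD90+ against CD38+ control cells the 7 members with an ERSE had a median log2 fold change of -0.45 (range -2.01 to -0.01), and the 24 without one had a median of -1.21 (range -3.79 to 0.99). With GATA2 overexpression against control CD90+ cells the medians were 0.37 and 0.04, with ranges of -0.21 to 0.98 and -3.08 to 1.04. Of the 7 members with an ERSE, CANX alone fell in that comparison, and 6 rose. The ranges overlapped in both comparisons. The 24 without an ERSE include SDF2L1, HYOU1 and HERPUD1, which have ERSE-II matches, so they are not members without any such element. The search also allowed no mismatch, so near matches were counted as none. The HERPUD1 window, for example, holds a stretch that differs from the ERSE letters in its last base only. With GATA2 overexpression against control CD90+ cells the log2 fold changes of SDF2L1, HYOU1 and HERPUD1 were 1.04, -0.38 and -1.70.

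Other genes of the ER pathway were read from 5 lists of 101 symbols, of which 97 were in the table and 96 were tested. In CD90+ against CD38+ control cells 79 fell and 11 rose (median log2 fold change -0.58), where 39.3% of all genes tested fell and 41.1% rose (median 0.03). Scaled by library size only, 55 of the 96 fell and 27 rose. SEC61A1, the pore of the translocon, fell 3.40-fold from 538 ± 15.7 to 158 ± 1.58 CPM (SD, n = 3). TMBIM6, an ER membrane protein that limits cell death, fell 2.88-fold. EIF2AK4 (GCN2), the amino acid-sensing kinase that also leads to ATF4, rose 2.38-fold, and the disulfide isomerase PDIA5 rose 2.33-fold. All 18 genes of N-glycosylation and the lectin cycle fell, and 17 of 18 translocon and signal peptidase genes did so, but with library size only 14 of 18 fell in each list.

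With GATA2 overexpression against control CD90+ cells, 68 of the 96 rose and 19 fell (median log2 fold change 0.33), where 38.0% of all genes tested rose and 39.6% fell (median -0.04). Under library size alone 46 rose and 34 fell. N-glycosylation genes rose in 16 of 18 cases, as did translocon and signal peptidase genes, and the other disulfide and proline folding genes rose in 16 of 21. In these lists 11 of 18, 10 of 18 and 12 of 21 rose with library size only. DAD1, a subunit of oligosaccharyltransferase, rose 2.51-fold, from 168 ± 3.18 to 423 ± 7.79 CPM (SD, n = 3). SSR2, a translocon-associated protein, rose 1.92-fold. Of 23 transducers and targets 10 rose and 11 fell, shares near those of all genes. CHAC1, a glutathione-degrading enzyme induced by ATF4, was at 27.9, 24.6 and 26.6 CPM in control and at 3.75, 3.92 and 3.75 CPM with overexpression, a 6.92-fold fall. PPP1R15B, the constitutive relative of PPP1R15A, fell 2.37-fold. Against CD38+ control cells, 61 of the 96 were lower and 26 higher (median log2 fold change -0.25). Of all genes tested 39.9% were lower and 43.3% higher there (median 0.07). With library size only 50 of the 96 were lower and 37 higher. The peroxiredoxin gene PRDX4 was 3.92-fold and PDIA5 3.63-fold higher, and SEC61A1 was 4.02-fold and TMBIM6 3.32-fold lower.

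Markers of other cell types moved between the same groups, and their part in the results above was not tested. The summed level of 12 mast cell, basophil and eosinophil markers was 5389 to 5614 CPM in CD38+ control libraries. It was 231 to 235 CPM in CD90+ control libraries and 616 to 680 CPM with GATA2 overexpression, with 8 of 12 lower and 3 higher in CD90+ than in CD38+ control cells. CLC and HDC, at 3681 and 1300 CPM, made up most of the CD38+ control sum, while FCER1A and MS4A2 were at 1.03 and 0.357 CPM there. The 3 markers higher in CD90+ control cells were FCER1A, KIT and CCR3. Mast cells, basophils and eosinophils are granule-filled secretory cells, but the sum does not show which of them were present. The sum of 12 macrophage markers was 2565 to 2580, 2142 to 2177 and 523 to 580 CPM in the same order. The near sums of the control groups hide opposite changes, as 6 of 11 tested were higher in CD90+ control cells (C1QA 15.8-fold, TIMD4 53.4-fold) and 5 lower (LYZ 4.53-fold, CD14 11.6-fold). All 11 tested were lower with GATA2 overexpression than in CD90+ control cells. The sum of 12 mesenchymal markers, collagen genes among them, was 28.2 to 30.0, 1118 to 1137 and 276 to 294 CPM. That of 12 endoderm and liver markers was 26.5 to 29.7, 422 to 426 and 139 to 148 CPM. In CD90+ against CD38+ control cells 11 mesenchymal markers were higher and 0 lower. Of the endoderm and liver markers 9 were higher, but HNF4A was 6.68-fold and SERPINA1 1.64-fold lower, and ALB was not called. KRT19 alone was at 161 CPM in CD90+ control cells. POSTN and FGA, markers of mesenchyme and liver, had 0 counts in CD38+ control libraries. Of 7 plasma cell markers in the table, SDC1 and TNFRSF17 had 0 counts in CD38+ control libraries, and the sum was 75.7 to 78.3, 122 to 129 and 13.7 to 16.4 CPM. Of the 5 tested, 3 were higher in CD90+ than in CD38+ control cells, while IRF4 was 3.44-fold and CD79A 2.57-fold lower.

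Reads of some members may be shared with other loci. GENCODE release 29 names pseudogenes of PDIA3, XBP1 and ATF4, and 12 of the 34 members overlap another gene on the same strand and 18 a gene on the opposite strand. SYVN1 overlaps FAU and MRPL49, DDIT3 overlaps MARS and MBD6, and DERL3 overlaps SMARCB1. The labels describe strand-specific libraries but not whether the counting used strand, so values of these genes are less certain.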

How the data were processed

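The authors deposited 1 table of raw counts per gene symbol, with no correction for depth, for 9 libraries. The submitters' processing notes name HISAT2, featureCounts and hg38. Versions, annotation and strand setting are not stated there. Groups and replicate numbers came from the labels. Replicates differed by 3.96 to 7.84 chi-square per degree of freedom, so none was a duplicate.

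Genes were filtered with filterByExpr (minimum count 10, minimum total 15), scaled by TMM and tested by quasi-likelihood in edgeR 4.0.16 (R 4.3.3), in 1 fit of the 3 groups, with Benjamini-Hochberg adjustment over 16232 genes. TMM factors were 0.876 to 0.877 in CD38+ control, 1.16 to 1.17 in CD90+ control and 0.978 to 0.981 in GATA2 overexpression libraries. Standard errors are the absolute log2 fold change over the square root of F. The script was tested on simulated data. The members, gene lists and tests were chosen with earlier results of these data known. Every member is accounted for, and of the other pathway genes the 2 with the lowest adjusted p in each direction were named per comparison. Alternatives were RLE factors, library size only, no filter, at least 1 CPM in 3 libraries, DESeq2 1.42.0, a 2-group fit, a replicate block and leaving out each library. Promoters came from RefSeq and exons from GENCODE release 29.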

Additional observations from a re-analysis of the deposited data

How the results depend on the processing

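The counts of members called moved by less than 1.5 times under RLE factors, no filter, DESeq2, the 2-group fit and when any 1 library was left out. Without 1 library, 31 members fell and 1 rose in CD90+ against CD38+ control, 20 to 21 rose and 11 fell with GATA2 overexpression against control CD90+ cells, and 29 fell and 4 rose against CD38+ control. With library size only, 8 members rose in CD90+ against CD38+ control (2 with at least 1 CPM in 3 libraries), and with GATA2 overexpression against control CD90+ cells 13 rose and 17 fell. Of all calls, 71.2% were then higher in place of 51.2%, and 35.5% in place of 49.0%. By role, in a check chosen after seeing the data, library size only left 4 folding genes, 2 degradation genes and 2 sensors and factors higher in CD90+ against CD38+ control. With GATA2 overexpression against control CD90+ cells 1 degradation gene was then higher and 6 lower. Of the other pathway genes 27 were then higher in the control comparison and 34 lower with overexpression. No pairing by replicate number was seen. Deviations of same-numbered libraries correlated by -0.03 to 0.03, and 0, 0 and 3 of 6 libraries correlated best with their own number. With so few libraries this cannot show that same-numbered libraries were grown or handled apart. With the number as a replicate block, 31 members fell and 1 rose, 20 rose and 11 fell, and 29 fell and 4 rose in the 3 comparisons, as without it.

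In CD90+ against CD38+ control, library size only turned the log2 fold changes of HSP90B1 (0.14), DNAJC10 (0.11), PDIA4 (0.10), PDIA6 (0.02), HERPUD1 (0.06) and ATF4 (0.10). CALR turned to 0.40 there, to 0.04 with RLE factors and DESeq2, 0.00 without a filter, 0.07 with at least 1 CPM in 3 libraries, 0.05 in the 2-group fit, 0.02 without CD38+ control replicate 3 and 0.01 without CD90+ control replicate 2, and over all libraries left out in turn it ranged from -0.04 to 0.02. With GATA2 overexpression against control CD90+ cells, library size only turned HSPA5 (-0.05), DNAJB9 (-0.14), P4HB (-0.02), CRELD2 (-0.01), DERL1 (-0.09), DERL2 (-0.09) and ATF4 (-0.16, and -0.01 with at least 1 CPM in 3 libraries). ERN1 turned to 0.07 without CD90+ control replicate 1 and to 0.02 without GATA2 overexpression replicate 2, in a range of -0.07 to 0.07 over all libraries left out in turn. No member turned against CD38+ control in the third comparison. In the 3 comparisons 24, 24 and 31 members kept direction and call under every alternative. DERL3 is not among them, as the filter of at least 1 CPM in 3 libraries removed it. The turned signs under library size only follow from the shift of all genes by 0.41 and -0.25, and for the others the cause was not tested. Depth limited DERL3, with 8 to 36 counts per library.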
